A study of Homo sapiens with 31 samples.

Results

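The 272 transcripts described here lost translation efficiency in EIF4A1 knockout cells. They were chosen by measured values: the number of ribosome footprints on a transcript, relative to its RNA, was at least 2-fold lower in EIF4A1 knockout cells than in naive cells, both given the solvent DMSO. They were 272 of 32030 distinct transcripts with enough reads to be judged (0.849%), of 77343 distinct transcripts with a count and 227264 listed. A transcript could be judged with a count of 100 or more in all 4 RNA-seq libraries, 50 or more in both naive DMSO profiling libraries and a listed length under 3000. These 32030 transcripts are called the judged transcripts below and serve as the background throughout.

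The cells were HEK293 T-REx, human embryonic kidney cells that carry a tetracycline repressor for inducible transgenes. The series held 31 libraries. Ribosome profiling, which sequences the fragments of mRNA that ribosomes protect from nuclease, was made in naive, EIF4A1 knockout and EIF4A2 knockout cells. Each genotype had 2 DMSO libraries, 1 library at 1 µM PP242 and 1 at 10 µM PP242. PP242 is an inhibitor of the kinase mTOR, and it was given for 30 min. RNA-seq was made from naive and EIF4A1 knockout cells, with 2 libraries each. RNA captured with eIF4A1 or eIF4A2 carrying a streptavidin-binding peptide (SBP) was sequenced beside its input, with 2 libraries of each kind. SBP-eIF4A1 was also captured 72 h after siRNA: 2 inputs and 2 pulldowns with the control siRNA (siControl), and 2 inputs and 1 pulldown with siRNA against LARP1 (siLARP1). The labels do not say whether a knockout line is 1 clone, or whether replicates came from separate cultures. The p-values below therefore measure the spread between these libraries, which may be technical. Genotype and knockdown rest on the labels alone, because no transcript could be matched to a gene name.

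eIF4A1 is an RNA helicase of the cap-binding complex eIF4F. It uses ATP to unwind structure in the 5' leader of an mRNA, so that the small ribosomal subunit can load and scan towards the start codon. eIF4A2 is its close paralog. The kinase mTOR promotes formation of eIF4F by phosphorylating the 4E-BP repressors. LARP1 is an RNA-binding protein that binds the cap and adjoining bases of mRNAs with a 5' terminal oligopyrimidine tract when mTOR is inhibited. Because the files give Ensembl transcript IDs without gene names, the 272 transcripts are described below by their length, level, position in the file order and behaviour in the other libraries.

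The change of efficiency that chose the transcripts had a median of -1.13 on the log2 scale, from -2.13 to the threshold of -1. Among the judged transcripts the median was 0.03 and the 5th percentile was -0.60. A gain of the same size, a log2 change of 1 or more, was seen for 77 judged transcripts. The minimum of 50 footprints was set in the naive DMSO libraries alone, and the EIF4A1 knockout DMSO libraries, with fewer counts, had none. Losses and gains were therefore not judged alike, and their numbers are not compared. The last 2 transcripts inside the threshold had changes of -1.0037 and -1.0029, and the first 2 outside it both had -0.9995, so the list has no natural edge. Of the 272 transcripts, 20 were at -1.5 or less. With edgeR's quasi-likelihood test of the same contrast, 271 of the 272 had an adjusted p under 0.05, as did 11.8% of judged transcripts in the lower direction. Nothing is read from that count, since the same libraries chose the transcripts.

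The loss of efficiency was mostly a loss of footprints. Footprints in DMSO were lower in EIF4A1 knockout than in naive cells for all 272 transcripts, with a median log2 change of -0.92 (from -2.55 to -0.04) against 0.06 among judged transcripts. RNA moved less and in the other direction for most of them: its median log2 change was 0.25, from -1.16 to 1.09, and it was above 0 for 194 transcripts and below 0 for 78. For 37 transcripts footprints had fallen by less than 0.5, so that a higher RNA level made up most of their change in efficiency. At the other end, 117 transcripts had a footprint change of -1 or less.

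The 2 replicates did not pick the same transcripts. With the libraries numbered 1 alone, 196 of the 272 were at -1 or less, with those numbered 2 alone 186 were, and 110 were in both. The change that chose a transcript is the mean of these 2 values, so each of the 272 had to be at -1 or less in at least 1. Among all judged transcripts, 469 were at -1 or less with the libraries numbered 1, and 352 with those numbered 2. The EIF4A1 knockout DMSO libraries behind this choice were among the shallowest of the 12 profiling libraries, with 10067160 and 9206275 counts in all, against 20335532 and 23604578 in the naive DMSO libraries. The median transcript of the 272 had 97.5 and 119 footprint counts in the naive DMSO libraries, and 25 and 26 in the EIF4A1 knockout DMSO libraries. Judged transcripts had medians of 183 and 211, and 96 and 88. The total count was 9206275 to 23604578 in profiling libraries, 72099934 to 78989380 in RNA-seq libraries and 43413344 to 64179407 in pulldown and input libraries.

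The 272 transcripts were also not 272 genes. Of 94734 transcripts with a count, 26549 had the same counts as another in all 31 libraries, so isoforms of a gene may share reads. Transcripts within 10 distinct transcripts of each other in the file order, and with a correlation of at least 0.9 across the libraries, were joined into neighbour groups, which stand in approximately for genes. The 272 fell into 142 neighbour groups. Of these, 92 held 1 transcript, 10 held 5 or more, and the largest held 18. The transcripts were shorter than the background: the median listed length was 232, with quartiles of 126.75 and 495.25, against 315, with quartiles of 163 and 600, for judged transcripts. The files do not give the unit of length.

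The PP242 libraries were not used to choose the transcripts, and they show the same measurement in other libraries. Levels are given in CPM, the count scaled to the library's total. The median footprint level of the 272 transcripts was 4.79 and 5.04 CPM in the naive DMSO libraries and 2.48 and 2.82 CPM in the EIF4A1 knockout DMSO libraries. In naive cells given PP242 it was 4.72 CPM at 1 µM and 4.83 CPM at 10 µM. In EIF4A1 knockout cells given PP242 it was 4.78 CPM at 1 µM and 4.31 CPM at 10 µM. The low median level thus belonged to the 2 knockout DMSO libraries that had chosen the transcripts, and with PP242 the medians of the knockout and naive libraries lay close together. The EIF4A2 knockout libraries, at 5.12 and 4.37 CPM in DMSO and 4.69 and 4.54 CPM at 1 and 10 µM, lay with the naive ones.

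**Figure D1:**
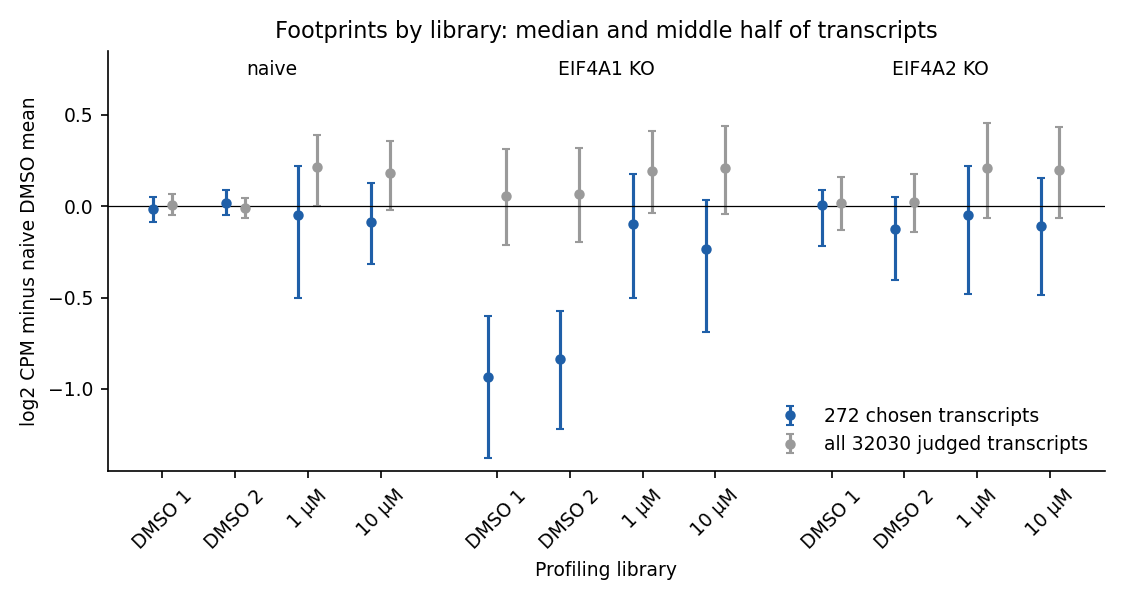
Median (point) and middle 50% (bar) of log2 CPM minus the mean of the naive DMSO libraries, for each of the 12 profiling libraries, in the 272 transcripts and in all 32030 judged transcripts. The 2 EIF4A1 knockout DMSO libraries, at medians of -0.94 and -0.83, stand below all others, and the PP242 libraries of the same knockout are at -0.10 and -0.23.

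Under PP242, a smaller number of these transcripts still had fewer footprints in EIF4A1 knockout cells. edgeR's quasi-likelihood test, with adjustment over all distinct transcripts tested and a call at an adjusted p under 0.05, called 69 of the 272 lower (25.4%) and 19 higher (6.99%). Among judged transcripts it called 9.71% lower and 9.79% higher. The median log2 change was -0.16, with quartiles of -0.45 and 0.16, and 174 of the 272 transcripts were below 0 (64.0%). The judged median was -0.00, with 50.3% below 0. At 1 µM the median difference between the knockout library and the naive one was -0.05, with 152 transcripts below 0, against a judged median of 0.00. At 10 µM it was -0.19, with 189 below 0, against a judged median of 0.03. In all, 137 were below 0 at both doses, and judged transcripts below 0 were not counted by dose. Each dose had 1 library per genotype, so the doses were pooled as the 2 libraries of a group and no dose has a test of its own. All profiling libraries were fitted together. The DMSO libraries that chose the transcripts therefore entered the estimate of spread behind these calls and the other PP242 calls below.

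Depth moved with this comparison. The 272 transcripts had median counts of 69 and 100 in the knockout libraries at 1 and 10 µM PP242, and 68 and 47 in the naive libraries. The part of depth and of the low counts in the difference between DMSO and PP242 was not tested. PP242 footprints were also set over the same RNA-seq libraries that entered the choice. The median efficiency change of the 272 was then -0.42, against -0.02 among judged transcripts. Of the 272, 46 transcripts remained at -1 or less, and 65 of all 32030 judged transcripts were there, these 46 included. Those values are descriptions, since the RNA term is shared with the rule.

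**Figure D2:**
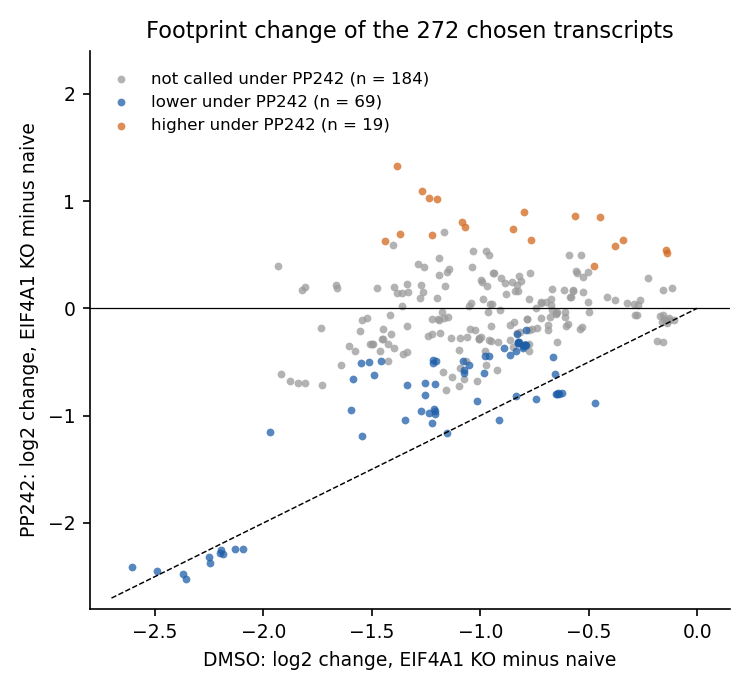
Each point is 1 of the 272 transcripts, with its log2 footprint change (EIF4A1 knockout minus naive) in DMSO on the horizontal axis and under PP242 on the vertical axis, coloured by its call under PP242; the dashed line marks equal change. The horizontal position was fixed by the choice of transcripts, and most points lie above the dashed line: 69 were called lower under PP242, 19 higher and 184 were not called.

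The share called lower under PP242 was highest among abundant transcripts. Of the 69 called lower, 36 had a mean of 500 or more footprints in the naive DMSO libraries and 33 had fewer. Of the 39 transcripts at 500 or more, 36 were called lower (92.3%), against 21.1% of judged transcripts in the same range. From 200 to 500 footprints 7 of 23 were called lower (30.4%, against 9.38%), from 100 to 200 it was 15 of 87 (17.2%, against 6.34%), and from 50 to 100 it was 11 of 123 (8.94%, against 3.48%). The share rose with count in both populations. The median log2 change was also lower in the abundant class, at -0.48, than in the other classes, at -0.15, -0.09 and 0.03 from the lowest count up. These 39 transcripts came from 10 neighbour groups, and 31 of the 36 called lower came from 3 of them. Counted by groups, 22 of the 142 had a transcript called lower and 15 had a transcript called higher. Loci were joined with the settings of the neighbour groups, but over all distinct transcripts, which gave 35424 loci. When 1 transcript per locus was kept before testing, 100 of the chosen transcripts remained. A chosen transcript dropped out where another transcript, chosen or not, was kept for its locus. The 100 are fewer than the 142 groups, so they do not stand for each group. Of these 100, 20 were called lower and 9 higher, against 9.32% and 9.03% of judged transcripts in that fit. Their median log2 change was -0.07 against -0.01. With all transcripts, leaving out the EIF4A1 knockout library at 10 µM moved the median from -0.16 to -0.09, with 48 called lower and 15 higher.

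**Figure D3:**
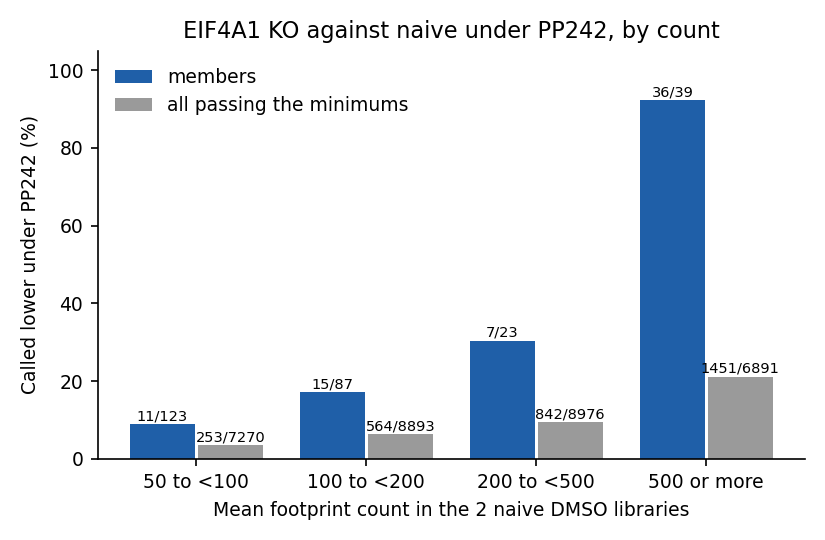
Percentage of transcripts called lower in EIF4A1 knockout than in naive cells under PP242 (edgeR, adjusted p under 0.05), by the mean footprint count in the 2 naive DMSO libraries, for the 272 transcripts and for all judged transcripts. The 272 stand above the background in each count class, by 92.3% against 21.1% at 500 or more footprints and 8.94% against 3.48% at 50 to 100.

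The largest neighbour groups, taken by size, differed in how their efficiency fell. In the group of 18 transcripts, RNA was higher (median log2 change 0.37) and DMSO footprints were lower (-0.77). Its footprint level, as the median over the group, was 210 and 211 CPM in naive DMSO libraries and 116 and 136 CPM in EIF4A1 knockout DMSO libraries. With PP242 it was 149 CPM at 1 µM and 164 CPM at 10 µM in naive cells, and 119 and 130 CPM in EIF4A1 knockout cells. In CPM the group was therefore lower with PP242 in naive cells and about level with PP242 in EIF4A1 knockout cells. Judged transcripts rose on that scale. Their median log2 difference from the naive DMSO mean was 0.06 and 0.07 in EIF4A1 knockout DMSO libraries. It was 0.19 and 0.21 at 1 and 10 µM PP242, so a level CPM was a fall relative to them. The log2 changes under PP242 given below come from the fit, which scales the libraries in another way. Both knockout values with PP242 lay below both naive values with PP242; the DMSO libraries chose the group. All 18 transcripts were called lower in the knockout under PP242, with a median log2 change of -0.34. In EIF4A2 knockout cells the group had 212 and 219 CPM in DMSO and 134 and 139 CPM at 1 and 10 µM PP242, and all 18 were called lower with PP242 there (median -0.85).

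One of the groups of 9 stood apart from the rest, since its RNA was lower as well. RNA was 312 and 307 CPM in naive cells and 142 and 141 CPM in EIF4A1 knockout cells. Footprints were 371 and 390 CPM in naive DMSO libraries and 68.2 and 84.5 CPM in EIF4A1 knockout DMSO libraries. With PP242 they were 333 and 319 CPM in naive cells and 60.9 and 58.2 CPM in EIF4A1 knockout cells, at 1 and 10 µM. The knockout libraries were far below the naive ones at both doses of PP242, and EIF4A2 knockout libraries had 348 and 362 CPM in DMSO and 284 and 272 CPM at 1 and 10 µM PP242. Under PP242, edgeR called 7 of the 9 transcripts lower in EIF4A2 knockout than in naive cells, with a median log2 change of -0.22. This group held the 2 transcripts with the lowest change among those called under PP242. ENST00000578754.5, with a listed length of 107, had 209 and 227 CPM in naive DMSO libraries, and 194 and 186 CPM at 1 and 10 µM PP242. In EIF4A1 knockout cells it had 37.6 and 51.0 CPM in DMSO, and 33.5 and 33.6 CPM with PP242. Under PP242 its log2 change was -2.52 (SE 0.08, edgeR adjusted p = 4.23e-34), and both knockout PP242 libraries lay below both naive ones. ENST00000583389.5, with a listed length of 220, had a log2 change of -2.48 (SE 0.07, edgeR adjusted p = 1.57e-35).

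No transcript was matched to EIF4A1, so whether this group belongs to the disrupted gene was not tested. Without it, 60 of the other 263 transcripts were called lower and 19 higher under PP242, and the median log2 change was -0.14. Of the 272, 17 transcripts in 5 neighbour groups had a log2 change of -1 or less under PP242, and 9 of these were in this group. Judged transcripts at -1 or less in this comparison were not counted, so the 17 have no background.

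**Figure D4:**
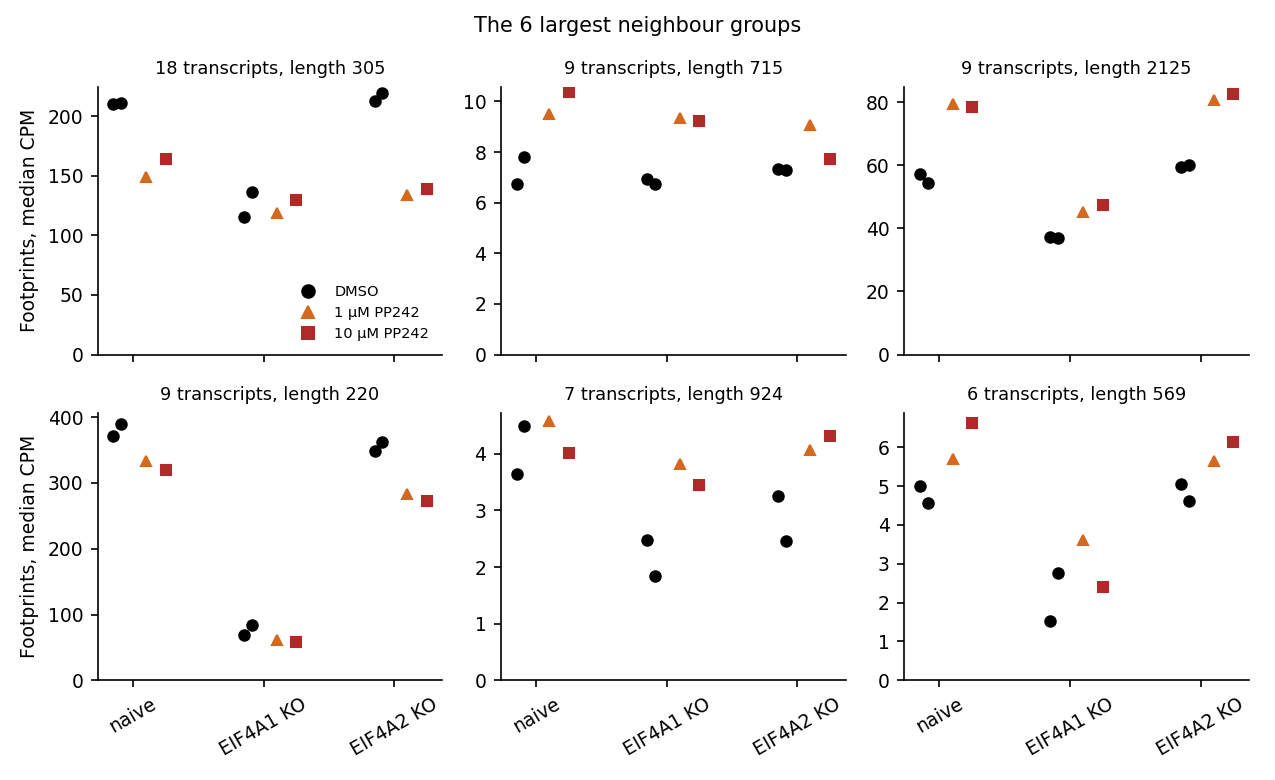
Footprint level (median CPM over the transcripts of a group, linear axis from 0) in each of the 12 profiling libraries, for the 6 largest neighbour groups, by genotype and treatment. With PP242, the EIF4A1 knockout libraries lie below the naive ones in the groups of 18 (119 and 130 against 149 and 164 CPM) and of 9 with a length of 220 (60.9 and 58.2 against 333 and 319 CPM); the DMSO libraries of these genotypes chose the transcripts.

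The other large groups ranged from an efficiency loss made of RNA to one made of footprints. A second group of 9, the longest with a median listed length of 2125, had RNA at 33.6 and 32.0 CPM in naive cells and 60.6 and 58.7 CPM in EIF4A1 knockout cells. Its footprints were 57.3 and 54.4 CPM in naive DMSO libraries and 37.2 and 37.0 CPM in EIF4A1 knockout DMSO libraries. With PP242 they were 79.3 and 78.4 CPM against 45.1 and 47.5 CPM, and all 9 were called lower (median -0.80). In this group footprints in CPM were higher with PP242 than with DMSO in all 3 genotypes, unlike the group of 18. A last group of 9 had a footprint change in DMSO of only -0.08, and its RNA was 3.98 and 3.01 CPM in naive and 7.16 and 7.07 CPM in knockout cells. None of its transcripts was called under PP242. A group of 7 had 3.64 and 4.49 CPM in naive DMSO libraries and 2.48 and 1.85 CPM in EIF4A1 knockout ones, and again none was called under PP242 (median -0.29). A group of 6, with 5.02 and 4.58 CPM against 1.54 and 2.77 CPM in DMSO, had all 6 called lower under PP242 (median -1.06).

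The 19 transcripts called higher in the knockout under PP242 had a median of 107.5 naive footprints, against 543 for the 69 called lower and 92.75 for the 184 not called. Their median log2 change under PP242 was 0.73, against -0.79 in DMSO. The highest was ENST00000484279.5, with a listed length of 37. It had 11.6 and 10.9 CPM in naive DMSO libraries and only 1.11 and 0.926 CPM at 1 and 10 µM PP242, from counts of 236, 258, 16 and 9. In EIF4A1 knockout cells it had 3.68 and 5.32 CPM in DMSO and 3.05 and 2.37 CPM with PP242. The higher value under PP242 (log2 change 1.32, SE 0.33, edgeR adjusted p = 0.00315) thus came with a drop in naive cells, where PP242 libraries were far below DMSO libraries. EIF4A2 knockout cells had the same drop, from 8.83 and 5.97 CPM to 1.08 and 0.547 CPM. ENST00000582829.6, with a listed length of 165, had 3.05 and 3.69 CPM in naive DMSO libraries and 1.11 and 1.85 CPM with PP242. In EIF4A1 knockout cells it had 1.59 and 1.30 CPM in DMSO and 4.37 and 2.20 CPM with PP242 (log2 change under PP242 1.10, SE 0.30, edgeR adjusted p = 0.00869).

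In EIF4A2 knockout cells the same transcripts had footprint levels near those of naive cells. In DMSO the median log2 footprint change of the 272 transcripts, EIF4A2 knockout minus naive, was -0.10 against -0.00 among judged transcripts. Of the 272, 185 were below 0 (68.0%), against 50.6% of judged transcripts. This comparison reuses the naive DMSO libraries of the rule, so it has no test. Under PP242 the rule had used none of the compared libraries, though the estimate of spread included its DMSO libraries. There 20 of the 272 were called lower in EIF4A2 knockout than in naive cells (7.35%) and 11 higher (4.04%). The background was 6.97% and 4.33%, so the shares were near those of all judged transcripts. Compared directly under PP242, 56 of the 272 were called lower in EIF4A1 knockout than in EIF4A2 knockout cells (20.6%, in 25 groups) and 28 higher (10.3%, in 22 groups). Among judged transcripts 13.8% were called lower and 16.5% higher. The median difference was -0.10, against 0.01, and was -0.05 both with 1 transcript per locus and without the EIF4A1 knockout library at 10 µM. The call counts of EIF4A2 knockout against naive rest on few libraries: 31 transcripts were called with all libraries, 7 without the EIF4A2 knockout library at 10 µM, 8 without the naive library at 10 µM and 11 without the EIF4A2 knockout library at 1 µM.

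The response to PP242 itself could be tested in EIF4A2 knockout cells, whose libraries had no part in the choice. The estimate of spread again included the DMSO libraries of the rule. With PP242, 66 of the 272 transcripts were called lower than in DMSO (24.3%, in 26 groups) and 6 higher (2.21%, in 2 groups), against 13.5% and 8.66% of judged transcripts. The median log2 change was -0.10, with quartiles of -0.50 and 0.10, against a judged median of 0.02. Scaled to the plain sum of counts it was 0.08 against 0.20, so the sign of the median depends on the scaling, and the distance below the background does not. The median was -0.02 without the EIF4A2 knockout DMSO replicate 1 and -0.21 without replicate 2, with 53 and 67 transcripts called lower. The shortest transcripts were the lowest: the median was -0.37 for the 79 under a length of 150, against -0.12 for judged transcripts of that length, and 0.04 against 0.13 for the 55 of 600 or more. In naive cells the median change with PP242 was -0.27, with 207 transcripts below 0 (76.1%, against 47.8% of judged transcripts). In EIF4A1 knockout cells it was 0.50, with 44 below 0 (16.2%, against 53.1%). Both of these use DMSO libraries that chose the transcripts. A high chosen value in naive DMSO libraries lowers the naive change by construction, and a low chosen value in knockout DMSO libraries raises the knockout change.

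RNA captured with SBP-tagged eIF4A was measured in libraries of its own. The series had no pulldown from untagged cells or with beads alone, so binding by eIF4A was not separated from unspecific recovery. Captured with SBP-eIF4A1, the 272 transcripts were more often enriched than depleted, while the judged transcripts were more often depleted. edgeR called 187 of the 272 higher in the pulldown than in the input (68.8%, in 89 groups) and 45 lower (16.5%, in 21 groups), against 30.6% and 48.1% of judged transcripts. The median log2 enrichment was 0.69, with quartiles of 0.08 and 1.06, against -0.21. With SBP-eIF4A2, 162 were called higher (59.6%) and 57 lower (21.0%), against 26.4% and 53.9%, and the median was 0.46 against -0.32. Scaled to the plain sum of counts, the 2 SBP-eIF4A1 pulldowns had medians of 0.49 and 0.51 over their mean input, against -0.38 and -0.38 in the background, and the SBP-eIF4A2 pulldowns had 0.65 and 0.61 against -0.13 and -0.16. The replicates differed by far less than the distance to the background. When 1 transcript per locus was kept, 63 of 100 were called enriched with SBP-eIF4A1 and 16 depleted, against 32.6% and 44.1%, and 52 of 100 were enriched with SBP-eIF4A2, against 27.6%.

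**Figure D5:**
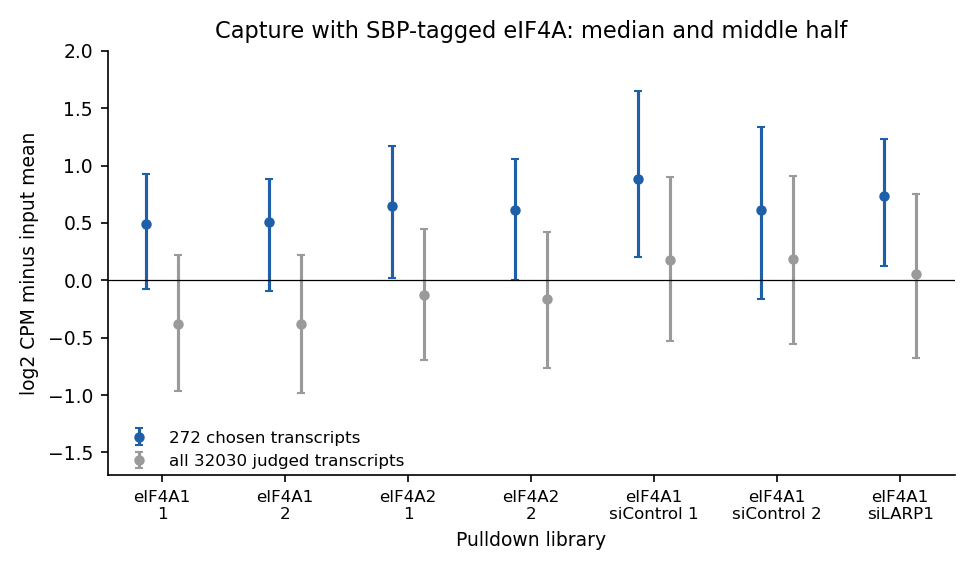
Median (point) and middle 50% (bar) of log2 CPM of each pulldown library minus the mean of its inputs, for the 272 transcripts and for all judged transcripts. The 272 lie above the background in each of the 7 pulldown libraries, with medians from 0.49 to 0.89 against -0.38 to 0.18.

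Capture by both proteins went together. Of the 272, 159 were called enriched with both (58.5%), against 22.2% of judged transcripts, and 39 were called depleted with both (14.3%), against 43.1%. Across the 272 transcripts Spearman's rho between both enrichments was 0.90, and it was 0.88 across judged transcripts. Transcripts are not independent replicates, and all libraries were counted on the same transcripts. Calls on the difference between both enrichments came at shares near the background: 62 of the 272 were called more enriched with SBP-eIF4A1 (22.8%) and 18 less (6.62%), against 23.2% and 8.89%. The median difference was 0.17 against 0.11, and with plain sums it was -0.18 against -0.23, so neither the sign nor a preference of this list for eIF4A1 can be read from it. Without the SBP-eIF4A1 pulldown replicate 2, 51 transcripts were called in either direction, and with all libraries 80 were.

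Length and level moved with capture among judged transcripts. In 4 length classes, under 150, 150 to 300, 300 to 600 and 600 to 3000, the median SBP-eIF4A1 enrichment of judged transcripts was 0.11, 0.02, -0.24 and -0.66. In the same classes the 272 had medians of 0.66, 0.71, 0.90 and 0.62, so they were above judged transcripts of their length in each class. The share called enriched was 59.5%, 72.0%, 79.4% and 65.5%, against 43.3%, 38.6%, 27.2% and 14.5%. By naive footprint count, from the lowest class to 500 or more, the 272 had medians of 0.73, 0.66, 0.66 and 0.89, against -0.02, -0.11, -0.27 and -0.47.

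After control siRNA, capture with SBP-eIF4A1 was measured again. There 102 of the 272 were called enriched (37.5%, in 44 groups) and 70 depleted (25.7%, in 51 groups), against 21.5% and 45.6% of judged transcripts, with a median of 0.18 against -0.37. With plain sums of counts the medians were 0.73 against 0.18, a shift of all transcripts that leaves the distance between them alike. Leaving out 1 library moved this median to 0.35 (without siControl input 1), 0.10 (without input 2), 0.05 (without pulldown 1, with 76 enriched and 71 depleted) and 0.33 (without pulldown 2). By transcripts the enriched outnumbered the depleted, and by neighbour groups they did not. When 1 transcript per locus was kept, 27 of 100 were enriched and 35 depleted, against 20.5% and 43.5%, with a median of -0.07. Long transcripts were the enriched ones in this experiment: the median was -0.46 for the 272 under a length of 150 and 1.03 at 600 or more, against -0.94 and 0.30 in the background. Both SBP-eIF4A1 experiments agreed only loosely, with a Spearman's rho of 0.33 across the 272 and 0.17 across judged transcripts. In all, 78 transcripts (28.7%) were called enriched in all 3 experiments, against 7.98% of judged transcripts, and 28 (10.3%) were enriched with SBP-eIF4A1 in the first experiment and depleted after control siRNA, against 11.7%.

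The large groups differed here as well. The group of 18 was called enriched in full with SBP-eIF4A1 (median 0.95) and with SBP-eIF4A2 (0.46), and had a median of -0.09 after control siRNA. The group of 9 with lower RNA was called depleted in full in all 3 experiments, at -0.36, -1.12 and -0.73. Its levels were 469 and 457 CPM in SBP-eIF4A1 inputs and 314 and 331 CPM in the pulldowns, and 283 and 289 CPM in SBP-eIF4A2 inputs and 145 and 152 CPM in the pulldowns. The longest group was depleted with SBP-eIF4A1 (-0.93) and SBP-eIF4A2 (-0.58), with all 9 called, and enriched after control siRNA (1.02, all 9 called). The groups of 7 and 6 and the last group of 9 were called enriched in full in all 3 experiments, with medians of 0.69 or more.

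Knockdown of LARP1 changed the input level of few of these transcripts. In siLARP1 inputs against siControl inputs edgeR called 18 of the 272 lower (6.62%, in 2 groups), with log2 changes from -0.89 to -0.75, against 0.84% of judged transcripts. It called 0 higher, against 0.593%, with 19 higher at an unadjusted p under 0.05 and 0 higher by DESeq2. The median over the 272 was 0.04 against -0.04, and 0.27 against 0.17 with plain sums. Of the 18, 17 were in the group of 18. Its level was 42.0 and 39.4 CPM in siControl inputs and 24.7 and 30.8 CPM in siLARP1 inputs. All 18 transcripts called lower were also among the 66 called lower with PP242 in EIF4A2 knockout cells, of which they were 27.3%. Among judged transcripts 210 of the 269 called lower for siLARP1 (78.1%) were called lower with PP242, 4.87% of the 4314 called there. The call rested on 3 of the 4 input libraries: without siControl input 1, 1 transcript was called lower and 3 higher, and without siControl input 2 or siLARP1 input 2 edgeR called 0 in either direction. Capture of the 272 after siLARP1, with 1 pulldown library and no test, differed from siControl by a median of -0.02, against -0.05 among judged transcripts. Of the 272, 139 were below 0 (51.1%), against 57.2% of judged transcripts.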

How the data were processed

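The authors deposited 1 file per library (31 in all) with raw counts per versioned Ensembl transcript and another number read as a length, the same in each file and negative for 313 transcripts. The submitters' processing notes name CASAVA 1.8, STAR 2.7.0a and hg38. The counter and the annotation release are not given in the sources used here. Transcripts with equal counts in every library were collapsed to the first. Efficiency used log2 CPM (count + 0.5, scaled to the file's sum). The transcripts and lists were chosen with earlier results of these data known.

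Tests used edgeR 4.0.16 in R 4.3.3 (TMM scaling, filterByExpr with a minimum count of 10, estimateDisp, quasi-likelihood, two-sided) with Benjamini-Hochberg adjustment over all distinct transcripts tested, and DESeq2 1.42.0 as the alternative. The fits were tested on simulated data. Named transcripts were the 2 lowest and 2 highest changes under PP242 among those called. No transcript ID was matched to a gene, so the planned gene lists and the check of EIF4A1, EIF4A2 and LARP1 levels were not run.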

Additional observations from a re-analysis of the deposited data

Results flagged for a closer look

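The difference between SBP-eIF4A1 and SBP-eIF4A2 enrichment was tested as a difference of differences with edgeR's quasi-likelihood test, and these results are given because that test found the capture of a transcript to differ between both proteins. Of the 272 transcripts, 62 were called higher with SBP-eIF4A1 and 18 were called lower, shares near those of all judged transcripts. ENST00000578754.5 differed by 0.74 on the log2 scale (SE 0.08, edgeR adjusted p = 5.44e-06), and ENST00000583389.5 differed by 0.77 (SE 0.08, edgeR adjusted p = 3.44e-06). Both were depleted in either pulldown, less so with SBP-eIF4A1. They belong to the same neighbour group, the group of 9 with lower RNA, and are not separate results. The size of this difference depends on the scaling: its median over the 272 was 0.17, and -0.18 with plain sums of counts.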

How the results depend on the processing

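The number of transcripts chosen depended on the settings. It was 272, and 124 with a pseudocount of 5, 122 with minimums of 200 and 100 counts and 100 with 1 transcript per locus. When 1 library was left out it was 256 to 405, and only 187 to 252 of the 272 were chosen again. The fewest, 187, remained without the EIF4A1 knockout DMSO replicate 1. Of 60 percentages called under other settings, 52 stayed within 1.5 times the reported value, as did 33 of 40 with a library left out. For the 20 transcripts at -1.5 or less, the percentage called and the median log2 change under PP242 were 65.0% and -0.83 for EIF4A1 knockout against naive, 60.0% and -0.64 for EIF4A1 against EIF4A2 knockout, and 10.0% and 0.0024 for PP242 against DMSO in EIF4A2 knockout cells. Their median enrichment was 0.80 with SBP-eIF4A1, 0.66 with SBP-eIF4A2 and 0.94 after siControl, and 0% were called for siLARP1 inputs. With 1 transcript per locus the medians were -0.07 for EIF4A1 knockout against naive, -0.05 for EIF4A1 against EIF4A2 knockout and -0.0192 for EIF4A2 knockout against naive under PP242, 0.56 with SBP-eIF4A1, 0.26 with SBP-eIF4A2 and -0.0657 after siControl, and 2% were called for siLARP1 inputs. DESeq2 called 4.41% for EIF4A2 knockout against naive and 19.1% for EIF4A1 against EIF4A2 knockout under PP242. Without the filter on low counts, 10.3% were called for siLARP1 inputs. When a library was left out, 2.57% to 8.46% were called for EIF4A2 knockout against naive, 18.8% to 43.8% for the difference of both enrichments and 0% to 4.78% for siLARP1 inputs, whose median ran from -0.0806 to 0.10. It was below 0 without siControl input 2 (-0.0806) and without siLARP1 input 2 (-0.0182). The cause of these changes was not tested.

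The labels give replicate numbers, but same-numbered libraries did not deviate together throughout (correlations from -0.17 to 0.54 over 28607 transcripts), so the numbers were not taken to pair samples. With the replicate number as a block, 85.3% of the 272 were called with SBP-eIF4A1, 79.8% with SBP-eIF4A2, 33.1% for their difference, 65.1% after siControl and 5.51% for siLARP1 inputs. Crossed numbers, chosen after seeing the data, gave 7.72% for siLARP1 inputs. In the fit of efficiency the block left 3330 of 3779 judged transcripts called lower. The PP242 libraries carry no replicate numbers. Low counts limit what a single transcript shows.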
